A study of Homo sapiens with 9 samples.

Results

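The adrenergic core circuitry transcription factors are a set of DNA-binding proteins that hold sympathetic neuroblasts and most neuroblastoma cells in their noradrenergic identity. The 8 genes described here are PHOX2A, HAND1, HAND2, GATA2, GATA3, ISL1, TFAP2B and INSM1. They were found by symbol among the 57757 gene identifiers of the deposited tables, and all 8 were present. RNA was sequenced from NLF, a human neuroblastoma cell line that the labels describe as wild type and of neural crest type. Cells were exposed for 48 hours to small interfering RNA (siRNA) directed at TBX2 (siTBX2), at its antisense noncoding transcript TBX2-AS1 (siTBX2-AS1), or at no transcript (siNTC). Each of the 3 groups held 3 libraries that the labels call biological replicates of this 1 line. The labels do not say what was kept separate between replicates, so p-values measure the spread between these libraries.

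In a core regulatory circuit, a few transcription factors bind their own enhancers and those of each other, and so sustain their joint expression. PHOX2A and ISL1 are homeodomain factors, HAND1 and HAND2 are basic helix-loop-helix factors, and GATA2, GATA3 and INSM1 are zinc finger factors. TFAP2B belongs to the AP-2 family and acts in differentiation along the sympathoadrenal lineage. TBX2 is a T-box factor, mostly a repressor, that is itself counted among neuroblastoma identity factors. Knocking it down therefore asks whether the other factors of the circuit move with it.

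Total counts were 31894280 to 51434090 per library, lowest in siTBX2-AS1 replicate 3. Levels of 1 gene between libraries are given in CPM, with library totals scaled by TMM, and levels between genes in FPKM, which also divides by transcript length. TBX2 fell in siTBX2 to 44.9% of its siNTC level (log2 fold change -1.15, SE 0.11, edgeR quasi-likelihood adjusted p = 0.00734). TBX2-AS1 fell in siTBX2-AS1 to 10.5% of its siNTC level (log2 fold change -3.25, SE 0.57, edgeR adjusted p = 0.0184). That second call was lost without siNTC replicate 1, siNTC replicate 3 or siTBX2-AS1 replicate 1, with adjusted p up to 0.0651, and also with no filter on low counts or with only the 2 groups compared.

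HAND1 was the factor in which the groups stood apart. It was highest in siTBX2, lower in siNTC and lowest in siTBX2-AS1, and it fell 3.36-fold in siTBX2-AS1 relative to siTBX2. PHOX2A, HAND2, ISL1, GATA2 and GATA3 were expressed in every library and their groups overlapped. INSM1 and TFAP2B were close to 0 in this line. Of the 8 genes, 7 passed the filter on low counts and were tested, and TFAP2B did not.

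A gene is said to rise or fall where its adjusted p from edgeR, over all 18367 genes tested, was under 0.05. In siTBX2 against siNTC, 0 of the 7 factors passed by edgeR, beside 1.61% of all genes, while 1 factor had an unadjusted p under 0.05, beside 16.0% of all genes. With the replicate number as a block, again 0 of the 7 passed, beside 4.75% of all genes. DESeq2 gave 0 as well, beside 6.72% of the genes it tested. In siTBX2-AS1 against siNTC, 0 of the 7 passed by edgeR, beside 4.57% of all genes, and 1 had an unadjusted p under 0.05, beside 18.4% of all genes. DESeq2 called 1 factor there, HAND1, beside 9.84% of the genes it tested. With the replicate number as a block, 2 of the 7 fell there, HAND1 and HAND2, beside 1741 of the 18367 genes called in either direction. In siTBX2-AS1 against siTBX2, 1 of the 7 passed and fell, beside 5.53% of all genes called and 3.5% called lower. With the block, 2 of the 7 fell in that comparison, HAND1 and HAND2, beside 2084 of the 18367 genes called in either direction.

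The median log2 fold change of the 7 factors was 0.008 in siTBX2 against siNTC, -0.105 in siTBX2-AS1 against siNTC and -0.081 in siTBX2-AS1 against siTBX2. Over all genes tested, the medians were 0.004, 0.01 and 0.005. In each of the 3 comparisons the libraries of both groups did not overlap in CPM for 1 of the 7 factors, HAND1. Among all genes the share without overlap was 22.8%, 24.0% and 26.7%, so that count of 1 in 7 is near the background. The 3 comparisons share libraries and are not independent of each other.

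**Figure D1:**
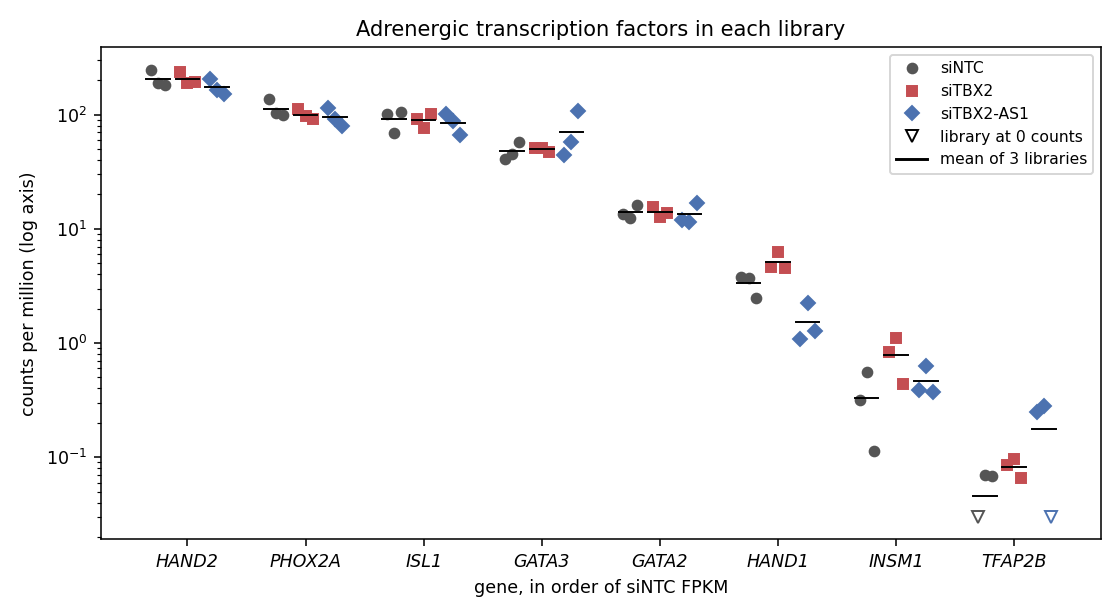
CPM of the 8 factors in each of 9 libraries on a log axis, with symbols for siNTC, siTBX2 and siTBX2-AS1, a bar at the mean of 3 libraries and open triangles for libraries at 0 counts. HAND1 runs from 1.08 to 6.21 CPM with 3 separate groups, while the 5 genes to its left have groups that overlap.

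In control cells the factors spanned a wide range of levels. HAND2 had 49.3 ± 10.0 FPKM (SD, n = 3) and PHOX2A 37.1 ± 9.30 FPKM, and their libraries overlapped. ISL1 followed at 13.0 ± 2.50 FPKM, GATA3 at 6.92 ± 0.486, GATA2 at 2.17 ± 0.468 and HAND1 at 1.28 ± 0.309. From PHOX2A down, every library of a gene lay above every library of the next gene in this order.

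HAND2 stood at percentile 95.1 of the siNTC FPKM of tested genes and PHOX2A at percentile 93.1. HAND1 stood at percentile 32.6, below the median of 3.88 FPKM. INSM1 had 0.076 ± 0.0528 FPKM and TFAP2B 0.00242 ± 0.00229 FPKM in siNTC. GATA2, at percentile 40, also lay below that median. By level in siNTC, 6 of the 8 genes thus had a mean of at least 1 FPKM, and INSM1 and TFAP2B are listed here for completeness. Such a level does not show that a gene acts in the circuit in NLF, which was not tested.

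PHOX2A (ENSG00000165462.5), on chromosome 11 from 72239077 to 72245664 on the minus strand (GRCh38, GENCODE release 29), is a homeodomain factor needed for noradrenergic neurons. It had 137, 103 and 98.3 CPM in replicates 1 to 3 of siNTC, 111, 96.8 and 91.65 in siTBX2, with 114.5, 92.2 and 80.0 in siTBX2-AS1. The groups overlapped, and replicate 1 was the highest library of each. The log2 fold change was -0.17 in siTBX2 (SE 0.17, edgeR adjusted p = 0.691) and -0.24 in siTBX2-AS1 (SE 0.17, edgeR adjusted p = 0.525), both against siNTC. The 95% interval of the latter ran from -0.62 to 0.14, so it held falls as well as small rises. Fewer cells with the transcript and less transcript per cell cannot be told apart in these bulk libraries, here or for any gene below.

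ISL1 (ENSG00000016082.10) is a LIM-homeodomain factor of sympathetic and motor neurons, on chromosome 5 from 51383391 to 51394738 on the plus strand. It had 101, 69.0 and 104 CPM in siNTC, 91.3, 76.9 and 101 in siTBX2, with 101, 87.5 and 66.4 in siTBX2-AS1. Replicate 2 was the lowest library of siNTC and siTBX2, and replicate 3 the lowest of siTBX2-AS1. The groups overlapped, with log2 fold changes of -0.02 in siTBX2 (95% interval -0.48 to 0.43) and -0.10 in siTBX2-AS1 (95% interval -0.56 to 0.35) against siNTC.

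HAND1 (ENSG00000113196.2) is a basic helix-loop-helix factor known from heart and trophoblast as well as from sympathoadrenal cells. It lies on chromosome 5 from 154474972 to 154478264 on the minus strand. Its libraries had 3.81, 3.74 and 2.47 CPM in siNTC, 4.65, 6.21 and 4.54 in siTBX2, with 1.08, 2.23 and 1.27 in siTBX2-AS1. All 3 groups were separate, with siTBX2 on top and siTBX2-AS1 at the bottom. These levels rest on 109 to 194 counts per library in siNTC, 207 to 260 in siTBX2 and 41 to 88 in siTBX2-AS1.

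Against siTBX2, HAND1 fell in siTBX2-AS1 to 29.8% (log2 fold change -1.75, SE 0.31, 95% interval -2.45 to -1.05, edgeR adjusted p = 0.015). It had a log2 fold change of 0.62 in siTBX2 against siNTC (SE 0.30, edgeR adjusted p = 0.351) and of -1.13 in siTBX2-AS1 against siNTC (SE 0.31, edgeR adjusted p = 0.0816). The 95% interval of the last value, -1.83 to -0.43, did not include 0 before adjustment over all genes. DESeq2 called that comparison (adjusted p = 0.0066), as did edgeR with the replicate number as a block (adjusted p = 0.0295).

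The call of HAND1 between the knockdowns was lost without siTBX2 replicate 2 (edgeR adjusted p = 0.0518), without siTBX2-AS1 replicate 1 (0.0543) and without siTBX2-AS1 replicate 3 (0.0614). In those 3 fits the log2 fold change was -1.59, -1.54 and -1.64. It was lost as well without the 3 libraries numbered 3 (0.125), an alternative chosen after seeing the data. On the log2(FPKM + 1) scale the value was -0.91 and called. An exact two-sided permutation test of single genes gave HAND1 p = 0.1 in each comparison, the smallest value that 3 libraries against 3 allow, and the adjusted value over 24 such tests was 0.8.

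**Figure D2:**
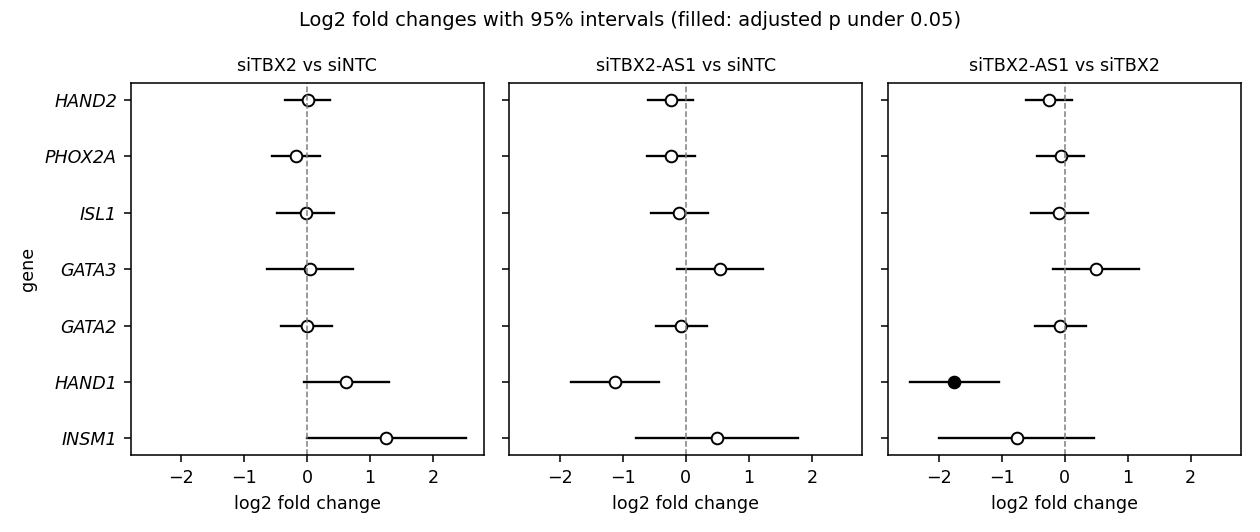
Log2 fold changes (x axis) of the 7 tested factors (y axis) in the 3 comparisons, as points with 95% intervals from edgeR, filled where the adjusted p was under 0.05. HAND1 between siTBX2-AS1 and siTBX2, at -1.75, is the filled point.

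HAND2 (ENSG00000164107.7) is the basic helix-loop-helix factor on which sympathetic neuron differentiation depends, and the most abundant member in FPKM. It lies on chromosome 4 from 173524969 to 173530229 on the minus strand. It had 247, 189 and 180.0 CPM in siNTC, 236, 191 and 193 in siTBX2, with 205.5, 165 and 150.3 in siTBX2-AS1. The groups overlapped and replicate 1 was again the highest library of each.

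The log2 fold change of HAND2 was 0.01 in siTBX2 against siNTC (95% interval -0.35 to 0.37), and this sign turned under other settings. It was -0.24 in siTBX2-AS1 against siNTC (SE 0.16, edgeR adjusted p = 0.494) and -0.25 against siTBX2 (SE 0.16, edgeR adjusted p = 0.444). With the replicate number as a block, edgeR called HAND2 lower in both (adjusted p = 0.0451 and 0.0334). HAND2 shares 867 exon bases with HAND2-AS1 on the opposite strand. The use of strand in counting is not given in the sources used here, so counts of this pair may be mixed.

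GATA3 (ENSG00000107485.11) is a zinc finger factor of the sympathoadrenal lineage and of T cells, on chromosome 10 from 8045378 to 8075203 on the plus strand. It had 40.6, 45.2 and 57.9 CPM in siNTC, 50.7, 50.6 and 47.3 in siTBX2, with 44.3, 57.05 and 108 in siTBX2-AS1. Replicate 3 of siTBX2-AS1 was the highest library by far, and the other 8 lay together. In that library FPKM was 18.9, against 6.71 and 7.02 in the other libraries of its group.

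The log2 fold change of GATA3 in siTBX2-AS1 against siNTC was 0.54 (SE 0.30, edgeR adjusted p = 0.396), and it was 0.07 without siTBX2-AS1 replicate 3. This library also had the lowest depth of the 9. What part its depth had in the GATA3 value was not tested. In siTBX2 against siNTC, GATA3 had a log2 fold change of 0.05 (95% interval -0.63 to 0.73).

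GATA2 (ENSG00000179348.7), the second GATA factor of the set, is known from blood stem cells and from neurons. It lies on chromosome 3 from 128479427 to 128493185 on the minus strand. It had 13.4, 12.5 and 16.3 CPM in siNTC, 15.6, 12.7 and 13.6 in siTBX2, with 11.9, 11.5 and 16.7 in siTBX2-AS1. The groups overlapped, with siTBX2-AS1 replicate 3 the highest library here too. The log2 fold changes against siNTC were -0.01 in siTBX2 (95% interval -0.41 to 0.40) and -0.07 in siTBX2-AS1 (95% interval -0.48 to 0.33).

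INSM1 (ENSG00000173404.3), a zinc finger transcriptional repressor that acts in neuroendocrine differentiation, is on chromosome 20 from 20368121 to 20370949 on the plus strand. It had 16, 24 and 5 counts in siNTC, 39, 46 and 20 in siTBX2, with 20, 25 and 12 in siTBX2-AS1. Replicate 2 was the highest and replicate 3 the lowest library of each group, and the groups overlapped. The log2 fold change in siTBX2 against siNTC was 1.26 (SE 0.55, unadjusted p = 0.0494 and adjusted p = 0.311 by edgeR).

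TFAP2B (ENSG00000008196.8), on chromosome 6 from 50818723 to 50847613 on the plus strand, was too low to test. It had 0, 3 and 3 counts in siNTC, 4, 4 and 3 in siTBX2, with 13, 11 and 0 in siTBX2-AS1. A library at 0 counts allows up to 0.0594 CPM in siNTC replicate 1 and up to 0.0941 CPM in siTBX2-AS1 replicate 3, for counting error alone. No difference of TFAP2B was detectable at this depth.

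Over the 9 libraries, PHOX2A and HAND2 varied together. Pearson's r of their log2 CPM was 0.908 and Spearman's rho 0.767, and r was 0.748 without the 2 libraries farthest from the PHOX2A median. As deviations from the group means r was 0.983, and as deviations from the mean of each replicate number 0.717. GATA3 ran the other way, with r of -0.764 to PHOX2A and -0.767 to HAND2. Without the 2 libraries farthest from the median of PHOX2A or of HAND2, these values were -0.482 and -0.475. Other pairs were alike on single scales. HAND1 and HAND2 had r of 0.917 as deviations from the mean of each replicate number. Over the 9 libraries their r was 0.455, and as deviations from the group means -0.069. GATA2 and GATA3 had r of 0.827 as deviations from the group means, and 0.593 over the 9 libraries. Without the 2 libraries farthest from the GATA2 median, their r was -0.126. All of these are descriptions over 9 libraries that share their groups, replicate numbers and scaling.

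**Figure D3:**
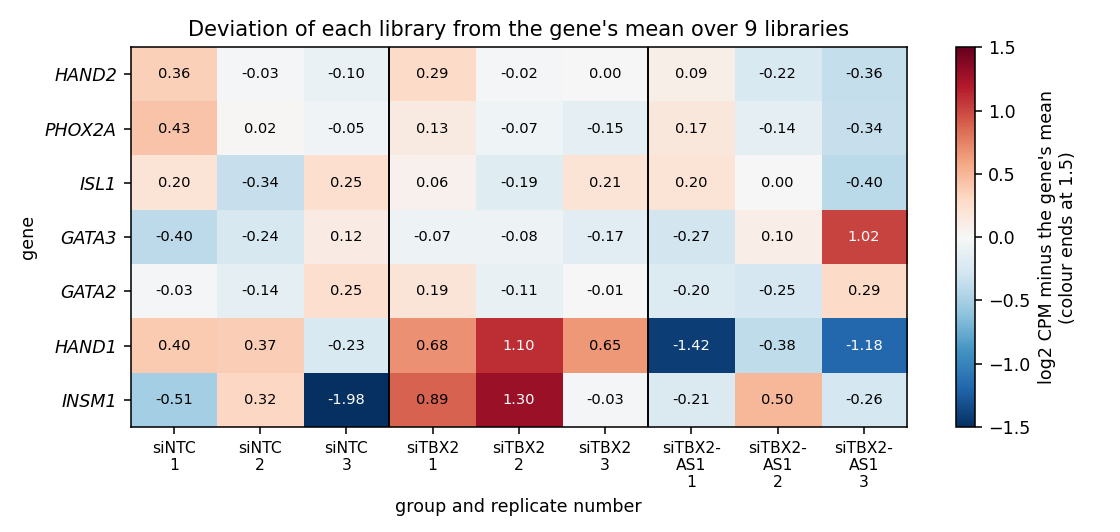
Log2 CPM of each of the 7 tested factors (rows) in each of 9 libraries (columns), minus the mean of the gene over the 9 libraries, in colour and figures. PHOX2A and HAND2 are high in replicate 1 of each group, GATA3 is 1.02 above its mean in siTBX2-AS1 replicate 3, and HAND1 is above its mean in all siTBX2 and below it in all siTBX2-AS1 libraries.

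For each tested factor, the genes whose log2 CPM was most alike over the 9 libraries were listed among the other 18366 genes, as a description. HAND1 was closest to NUP133, a nuclear pore subunit (r = 0.988), and to AMN1 (r = 0.97). NUP133 had 185 to 203 CPM in siNTC, 208 to 231 in siTBX2 and 160.5 to 181 in siTBX2-AS1, so its groups were separate in the order seen for HAND1.

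HAND2 was closest to NQO1, a quinone reductase (r = 0.992), and to S100A11 (r = 0.964). NQO1 was highest in replicate 1 of each group, at 67.7, 60.6 and 46.9 CPM. PHOX2A was closest to the spectrin gene SPTBN1 (r = 0.962) and to SQSTM1 (r = 0.959), an autophagy receptor. GATA3 was closest to ZBTB43 (r = 0.951) and to the bradykinin receptor gene BDKRB2 (r = 0.939). Both rest on siTBX2-AS1 replicate 3, where ZBTB43 had 32.7 CPM against at most 10.7 elsewhere and BDKRB2 5.03 against at most 1.90.

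GATA2 was closest to KDM4B (r = 0.97) and WDR62 (r = 0.957). ISL1 was closest to the small RNA genes SNORD97 (r = 0.949) and RNVU1-7 (r = 0.947). INSM1 was closest to NGFR, the low-affinity neurotrophin receptor (r = 0.989), and SLC6A15 (r = 0.972). NGFR was itself near 0, at 0.181 to 2.10 CPM.

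Of the RNAs transcribed antisense to or divergent from the factors, 4 were found and tested, and 0 were called by edgeR in any comparison. HAND2-AS1 had a mean of 66.4 ± 6.14 CPM in siNTC, 63.9 ± 13.7 in siTBX2 and 84.7 ± 21.4 in siTBX2-AS1, with groups that overlapped. ISL1-DT and GATA2-AS1 had log2 fold changes between -0.19 and 0.27 over the 3 comparisons. GATA3-AS1 was at 2.69 to 5.36 CPM in 4 libraries and at 0.403 to 0.611 CPM in the other 5. The high libraries were spread over all 3 groups (siNTC replicates 1 and 2, siTBX2 replicate 3, siTBX2-AS1 replicate 1), and none of them was the library in which GATA3 was high.

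Among 32 other neuroblastoma identity factors and their cofactors, 30 were tested. In siTBX2 against siNTC, MYCN, the driver oncogene of much high-risk neuroblastoma, rose (log2 fold change 0.72, SE 0.08, edgeR adjusted p = 0.00849), as did the chromatin organiser gene SATB1 (0.59). TBX2 fell, as given above. In siTBX2-AS1 against siNTC, MYCN rose (0.39, SE 0.08, edgeR adjusted p = 0.0258) and the homeobox gene TLX2 fell (-0.77, SE 0.14, edgeR adjusted p = 0.0191). Between the knockdowns, TBX2 was higher and MYCN, TLX2 and KDM1A lower in siTBX2-AS1. In 9 fits that each left 1 library out, the calls of MYCN and TBX2 in siTBX2 against siNTC were kept in all 9 and that of SATB1 in 0. In siTBX2-AS1 against siNTC, TLX2 kept its call in 5 and MYCN in 3 of them. Between the knockdowns KDM1A kept it in 4, and TLX2 and MYCN in 2 each. On the log2(FPKM + 0.1) scale the calls of SATB1, of MYCN against siNTC in siTBX2-AS1, and of KDM1A, TLX2 and MYCN between the knockdowns were lost as well.

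The relatives of the 8 factors within their protein families were tested as well. Of 27 such genes, 25 were found and 13 tested. By edgeR without the replicate block, 0 were called in any comparison, beside 1.61% to 5.53% of all genes. With the block, 1 rose in siTBX2-AS1 against siNTC, beside 1741 of the 18367 genes called in either direction. That gene was ISL2, at 6.32 ± 0.919 CPM in siNTC and 9.57 ± 1.60 CPM in siTBX2-AS1. INSM2, the paralog of INSM1, was expressed at 72.9 ± 9.03 FPKM in siNTC where INSM1 was near 0. TWIST1, a helix-loop-helix partner of the HAND factors, had 57.6 ± 2.07 FPKM. GATA1, GATA5 and GATA6 were listed at 0 in siNTC, and GATA4 was at 0.0403 FPKM, so GATA2 and GATA3 were the GATA genes at 1 FPKM or more.

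The genes that mark sympathoadrenal cells or that these factors are known to regulate were read next. Of 32, 14 had a mean of at least 1 FPKM in siNTC and 18 were below it. Of those, 4 (TH, PNMT, SST and DLK1) were at 0 counts in all 9 libraries. TH encodes the first enzyme of catecholamine synthesis and DBH the enzyme that makes noradrenaline, and DBH had 0.15 ± 0.0214 FPKM. DDC, the decarboxylase between them, had 9.33 ± 2.01 FPKM and SLC6A2, the noradrenaline transporter gene, 6.48 ± 0.531 FPKM. The granin genes CHGA and CHGB were under 1 FPKM, while SCG2 had 64.4 ± 9.01 FPKM.

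**Figure D4:**
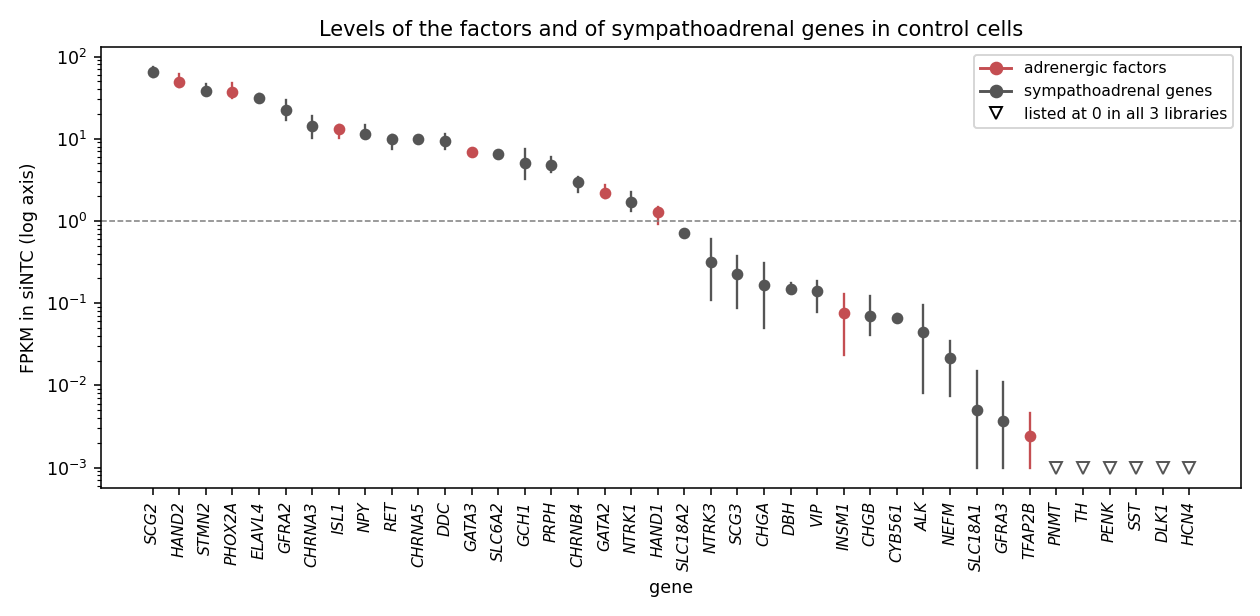
Mean FPKM in siNTC (log axis) of the 8 factors and of 32 sympathoadrenal genes, with lines from the lowest to the highest of 3 libraries, a dashed line at 1 FPKM and open triangles for genes listed at 0. HAND2 and PHOX2A sit near the top beside SCG2 and STMN2, while DBH lies below 1 FPKM and TH at 0.

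Of the 32 sympathoadrenal genes, 24 were tested. In siTBX2 against siNTC, 2 rose, GCH1 (log2 fold change 0.61) and SCG2 (0.57), and 0 fell by edgeR, beside 1.61% of all genes called. The call of GCH1 was lost on the log2(FPKM + 0.1) scale, where its value was 0.16, and also under upper-quartile scaling, without the low-count filter, or in a fit of just the 2 groups. That of SCG2 was lost on the FPKM scales and in a fit of just the 2 groups. With the replicate number as a block, 2 rose and 3 fell, beside 4.75% of all genes called. Those that fell were CHRNB4, RET and STMN2. In siTBX2-AS1 against siNTC, SCG2 rose (0.62), and ELAVL4, an RNA-binding protein of neurons, and SLC6A2 fell (-1.24 and -0.79), beside 4.57% of all genes called. With the block, 5 rose there (CHGA, CHGB, NPY, SCG2 and SCG3) and 3 fell (ELAVL4, PRPH and SLC6A2). Of all 18367 genes, 1741 were called by that fit. The median log2 fold change of the 24 was -0.03 in siTBX2 and 0.03 in siTBX2-AS1 against siNTC.

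Between the knockdowns, RET (0.86) and STMN2 (1.22) were higher and ELAVL4 (-1.12) and GCH1 (-0.62) lower in siTBX2-AS1, beside 5.53% of all genes called. With the block, 5 rose there (CHGA, CHRNB4, RET, SCG3 and STMN2) and 2 fell (ELAVL4 and GCH1). Of all 18367 genes, 2084 were called by that fit. On the log2(FPKM + 0.1) scale the value of GCH1 was 0.16 and not called, the opposite sign, and RET was not called there either. The calls of ELAVL4 in both comparisons were kept in all 9 fits that left 1 library out. The other calls named here without the block for these 32 genes were lost in 2 to 9 of those 9 fits.

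Of the 11 markers of neuroblastoma identity, 7 had at least 1 FPKM in each group, and DBH, TH, CHGA and CHGB did not. The 11 summed to 195 to 241 FPKM in siNTC, 173 to 199 in siTBX2 and 172 to 207 in siTBX2-AS1. They include the factors PHOX2A, HAND2, GATA3 and ISL1 themselves, so this sum is no separate evidence of identity. The 11 Schwann and melanocyte markers summed to 3.53 to 5.45 FPKM over all libraries, with SOX10, CDH19, MLANA and TYR at 0 counts. Leukocyte markers, 8 in all, summed to 0.67 to 1.74 FPKM, with CD3E and LYZ at 0. The 8 epithelial and endothelial markers summed to 1.60 to 5.76 FPKM. Of 17 genes of the mesenchymal neuroblastoma state, 10 reached 1 FPKM, summing to 712 to 811 FPKM in siNTC, 694 to 896 in siTBX2 and 668 to 856 in siTBX2-AS1, most of it VIM and FN1.

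Of those 17 genes, SNAI2 fell in siTBX2-AS1 against siNTC (log2 fold change -0.90, SE 0.19, edgeR adjusted p = 0.0348), from 7.22 ± 1.11 to 3.85 ± 0.837 CPM, while HAND1 had -1.13 in the same comparison. What SNAI2 had to do with the HAND1 value was not tested. Of the 8 epithelial and endothelial markers, VWF fell between the knockdowns, at 1.58 ± 0.743 CPM in siTBX2 and 0.298 ± 0.217 CPM in siTBX2-AS1. The calls of SNAI2 and VWF were each kept in 1 of 9 fits that left 1 library out.

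The 3′ untranslated regions of the factors were searched for the 7-base word most in excess among genes that fell in each knockdown, since short words shared by falling genes can mark pairing with a small RNA. For siTBX2-AS1 against siNTC that word was TTAAACT. It was in 305 of 463 genes that fell (65.9%), in 30 of 295 that rose (10.2%) and in 18.8% of the uncalled genes searched, and in 20.3% of all 13017. The word was picked from these same calls, so its share among them is a description. HAND1 and GATA2 hold it once each, and PHOX2A, HAND2, GATA3, ISL1, TFAP2B and INSM1 do not. The 30 bases around it are shown in the direction of the transcript, from GRCh38, with the word in capitals, because HAND1 has the lowest log2 fold change of the 7 tested factors in this comparison.
HAND1, chr5:154475108-154475137, minus strand: tttttatgtatTTAAACTacctaccatgcc
GATA2, chr3:128480100-128480129, minus strand: ttgttttatttTTAAACTctttttgggtcc

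In HAND1 the word starts at base 680 of an 834-base 3′ untranslated region and is followed by an A. In GATA2 it starts at base 901 of 1592 and is followed by another base. HAND1 had a log2 fold change of -1.13 in this comparison and GATA2 of -0.07, and neither was called by edgeR. Among protein-coding genes named above as fallen in this comparison, ELAVL4 holds 2 copies of the word and SNAI2 1, while TLX2 and SLC6A2 hold none. NUP133, closest to HAND1 over the libraries, holds 1 copy and AMN1 none. The siRNA sequences are not given in the sources used here, and whether the word pairs with them was not tested.

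**Figure D5:**
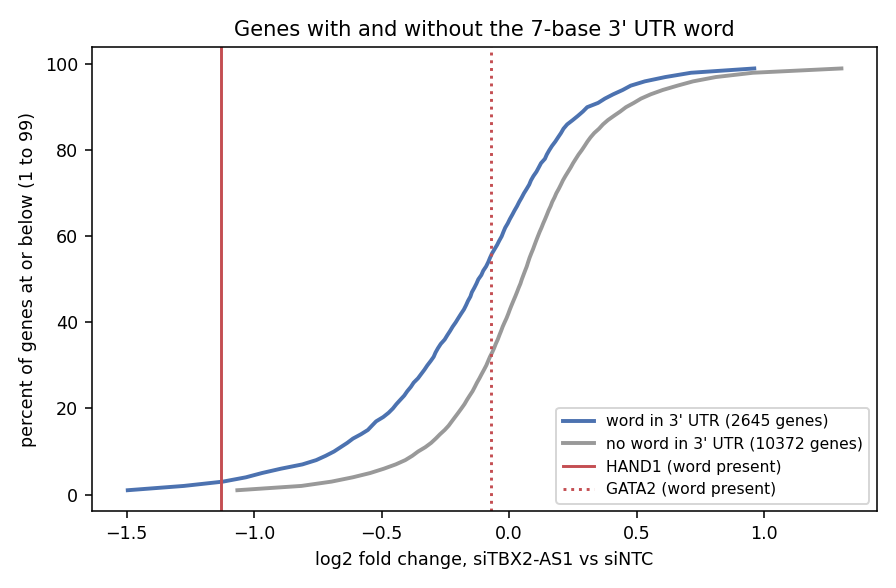
Percent of genes (y axis) at or below each log2 fold change of siTBX2-AS1 against siNTC (x axis), for 2645 genes with the 7-base word in the 3′ untranslated region and 10372 without it, with vertical lines at HAND1 and GATA2. The word was picked from calls of this comparison, and the curve with it lies to the left; HAND1 at -1.13 lies in its far left part and GATA2 at -0.07 in its middle.

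For siTBX2 against siNTC the most frequent excess word among falling genes was AGAATGA, in 67 of 135 genes that fell (49.6%) and 18.3% of uncalled ones. None of the 8 factors holds it.

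Promoters were searched for the T-box letters, since TBX2 binds such elements. RefSeq promoters (GRCh38.p14, 250 bases before to 50 after a start) were found for 7 of the 8 factors, 13 in all, and INSM1 was not matched. On both strands, AGGTGTGA was in 0.98% of all 35116 promoters and in 0 of the 13. Its first 6 letters, AGGTGT, were in 11.4% of all promoters and in 2 of the 13. GATA3 has 6 of the 13 promoters and PHOX2A has 1. The GATA3 match begins 85 bases before a start that lies inside the span given above for the gene. The matches, in capitals, are shown because GATA3 and PHOX2A are the factors that hold one; that of PHOX2A is on the other strand and reads ACACCT in the direction of the gene.
GATA3, chr10:8049757-8049786, plus strand: ggttggagacggAGGTGTgcgcgctccaat
PHOX2A, chr11:72244325-72244354, minus strand: catcccagctccACACCTctgagccctaag

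In siTBX2, where TBX2 fell to 44.9%, these 2 genes had log2 fold changes of 0.05 (GATA3) and -0.17 (PHOX2A), and neither was called. HAND1, with no such letters in its promoter window, had 0.62. A match of 6 letters is not a bound site, and no match says only that the letters are not in this window.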

How the data were processed

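RNA of 9 libraries was ribosomal-RNA-depleted and made into stranded libraries, per the labels. The submitters' processing notes name build hg19 and the tools STAR 2.4.2a, FastQC and StringTie 1.3.3; annotation, counting program and strand use are not given in the sources used here. One deposited table holds expected counts, whole numbers not scaled to depth, and the other FPKM, as deposited by the authors. Counts were filtered with filterByExpr, scaled with TMM and tested with edgeR 4.0.16 quasi-likelihood F tests (robust) in R 4.3.3 on all 9 libraries, with Benjamini-Hochberg adjustment over 18367 genes. The edgeR procedure was tested on simulated counts with the same spread for all genes and no effect of replicate number. Changes were placed in genes of higher counts than HAND1, so that test does not cover low counts or the replicate effect. Levels are scaled CPM, log2 CPM used a prior count of 0.5.

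Symbols were found for 52286 identifiers. Positions and untranslated regions (at least 50 bases) are from GENCODE release 29 on GRCh38, not the build of the files. The 8 members and all lists were chosen with earlier results of these data known. Named genes were the members, both targets, called list genes (at most 6 per list and comparison), antisense partners and the 2 most alike genes per member; the values of some genes are not reported here.

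Same-numbered libraries of siTBX2 and siNTC deviated together (r = 0.22, 0.134 and 0.232 for replicates 1 to 3), so the block is given beside that comparison. For siNTC with siTBX2-AS1 these values were 0.171, 0.093 and 0.222, and for siTBX2 with siTBX2-AS1 0.136, 0.055 and 0.212. Libraries of different numbers had r from -0.206 to 0.03 over all 3 comparisons. The block is therefore given for the factors in the other 2 comparisons as well. Alternatives used DESeq2 1.42.0, limma 3.58.1 and other scalings, filters and libraries.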

Additional observations from a re-analysis of the deposited data

How the results depend on the processing

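The number of factors called was 0 in siTBX2 against siNTC in all alternatives run, fits that left 1 library out included. In siTBX2-AS1 against siNTC it was 1 with DESeq2 and 0 to 1 with 1 library left out. With the replicate block it was 2, beside 1741 of the 18367 genes tested. These 2 were HAND1 (log2 fold change -1.17, edgeR adjusted p = 0.0295) and HAND2 (-0.24 and 0.0451). Between the knockdowns the number of factors called was 2 with the replicate block, beside 2084 of the 18367 genes tested. These 2 were HAND1 and HAND2, the latter at -0.26 with edgeR adjusted p = 0.0334. The number was 0 without the 3 libraries numbered 3, an alternative chosen after seeing the data, and 0 to 1 with 1 library left out. In both of these comparisons same-numbered libraries had r from 0.055 to 0.222. Libraries of different numbers had r from -0.206 to 0.03 over all 3 comparisons, and every library correlated best with those of its own number.

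Over all genes, siTBX2 against siNTC (295 called) gave 184 with no filter, 1060 with DESeq2, 33 on log2(FPKM + 0.1), 36 on log2(FPKM + 1), 17 on log2(FPKM + 0.1) with no filter, 52 from only the 2 groups compared, 873 with the replicate block and 44 to 177 with 1 library left out. It gave 0 by edgeR without the libraries numbered 3, where 2280 genes had an unadjusted p under 0.05 and DESeq2 was not run. For siTBX2-AS1 against siNTC (840 called) these were 1618 with DESeq2, 352, 345 and 169 on the FPKM scales, 461 from 2 groups, 1741 with the block, 70 without number 3 and 402 to 654 with 1 library left out. Between the knockdowns (1015 called) they were 1932 with DESeq2, 437, 463 and 227 on the FPKM scales, 2084 with the block, 105 without number 3 and 469 to 918 with 1 library left out.

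Signs turned as follows, with no turned value called. In siTBX2 against siNTC, HAND2 was -0.0124 with upper-quartile scaling, -0.0082 from 2 groups, -0.0039 with at least 1 CPM in 3 libraries, -0.0473 without number 3 and -0.12 to 0.16 with 1 library left out. GATA2 was 0.15 and 0.11 on log2(FPKM + 0.1) (with or without the filter) and log2(FPKM + 1), 0.005 with the replicate block, 0.12 without number 3 and -0.11 to 0.097 with 1 left out. ISL1 was 0.0499 and 0.0463 on those scales and -0.20 to 0.067 with 1 left out, and GATA3 -0.0565 to 0.19. In siTBX2-AS1 against siNTC, ISL1 was 0.026 and 0.0236 on those scales, 0.14 without number 3 and -0.28 to 0.033 with 1 left out, and GATA2 -0.28 to 0.034. Between the knockdowns, ISL1 was 0.16 without number 3 and -0.22 to 0.069 with 1 left out, PHOX2A -0.21 to 0.0497, GATA2 -0.26 to 0.035, and GCH1 0.16 and 0.14 on those scales. Without number 3, the calls of ELAVL4 and TBX2-AS1 were kept. Those of the other genes named in the report as called without the block were lost. The causes were not tested. Other scalings moved the median of all genes by at most 0.021 in size. INSM1 has no value under the filter of at least 1 CPM in 3 libraries. Counts were lowest for INSM1 and TFAP2B, which limits what could be seen for them.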

Other observations

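Some transcription factors outside the 8 members were low in some libraries of more than 1 group and high in the others. INSM2, the paralog of INSM1, had 23.8 CPM in siTBX2 replicate 1 and 115.5 CPM in siTBX2-AS1 replicate 3, and 300.4 to 393 CPM in the other 7 libraries. SOX4, a factor of neural progenitors, was at 22.1 CPM in siNTC replicate 3, 8.74 CPM in siTBX2 replicate 1 and 4.19 CPM in siTBX2-AS1 replicate 3, and at 142 to 190 CPM in the other 6. KLF13 was at 6.58 to 11.5 CPM in 4 libraries and at 75.1 to 109.7 CPM in the other 5. The lowest of these values rests on 135 counts. SOX4 and INSM2 were low together in siTBX2 replicate 1 and siTBX2-AS1 replicate 3, the latter being the library in which GATA3 was highest. Why single libraries differ this much was not tested. The genes in this section were chosen after their values were seen.

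PRRX1, a homeobox factor of the mesenchymal state, was at 0.132 to 0.248 CPM in replicate 3 of every group and at 1.77 to 4.09 CPM in replicates 1 and 2. KRT18 was likewise lowest in replicate 3, at 1.83 to 2.33 CPM against 6.88 to 9.48 CPM. CHGA and CHGB, near 0 in siNTC, had 1.90 ± 0.92 and 0.87 ± 0.218 CPM in siTBX2-AS1 and were not called by edgeR without the replicate block.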
